A study of Mus musculus with 15 samples.

Results

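The 9 genes described here encode complement proteins and their receptors: the 3 chains of C1q (C1qa, C1qb and C1qc), the central component C3, the alternative pathway genes Cfb and Cfp, the anaphylatoxin receptors C3ar1 and C5ar1, and the inhibitor Serping1. They were chosen by symbol among the 38924 Ensembl genes of the count and TPM tables, by membership in the complement system and not by any threshold on their values. All 9 were matched to an identifier, and all 9 were among the 14456 genes with a level over 1 CPM (counts scaled to library size) in 3 or more libraries, to which the tests were applied. Serping1 passed this filter only through lymph node (LN) libraries.

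Complement is a cascade of plasma proteins that tags particles for uptake, releases chemoattractant fragments and can perforate membranes. C1q recognises antibody on a target and starts the classical pathway, whereas factor B (Cfb) and properdin (Cfp) build and stabilise the convertase that cleaves C3 in the alternative pathway. Most circulating complement is made by the liver, but mononuclear phagocytes (MPs) are known as a source of C1q and properdin and carry receptors for the C3a and C5a fragments.

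RNA was sequenced from 5 murine MP subtypes, with 3 libraries each: CD8+ DCs, CD4+ DCs and Ly6C+ monocytes of the spleen, and migratory CD103+ DCs and CD11b+ DCs of the LNs that drain the lung. The study groups the CD8+ and CD103+ cells as DC1 and the CD4+ and CD11b+ cells as DC2. Every library pooled sorted cells of 5 naïve C57BL/6 females, untreated and 6 to 8 weeks old per the labels, and no genotype or agent was compared. The LNs and spleens came from different cohorts, the LN gate took cells with high MHC class II, DCs were enriched on CD11c and monocytes on CD11b, so that organ, cohort and gate cannot be told apart, nor can monocyte and enrichment. Each monocyte library was counted from 2 runs and each DC library from 1, so monocyte and number of runs cannot be told apart either. Libraries held 4531243 to 10233914 counts on genes and 15222 to 17693 detected genes. The pools are the unit of replication, and p-values measure the spread between pools. Since each value is a share of the RNA of a sorted pool, fewer cells that carry a transcript and less of it per cell cannot be told apart.

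Markers of the labels were present. Mean Xcr1 reached 716 CPM in CD8+ DCs and 55.2 CPM in CD103+ DCs against at most 4.53 CPM in the other subtypes, mean Ccr7 was 4028 and 2319 CPM in the CD103+ and CD11b+ DCs of the LN, and mean Ly6c2 was 825 CPM in monocytes. Zbtb46, a DC marker, lay between 339 and 442 CPM in the 4 DC subtypes and at 6.84 CPM in monocytes. Itgae, which encodes CD103, was lower in CD103+ DCs (27.2 CPM) than in CD8+ DCs (107 CPM).

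The promoters of C1qb, C3 and Cfp are shown because these genes stood highest among the members, per length, in LN CD11b+ DCs, in monocytes and in splenic CD4+ DCs. Each sequence is the 250 bases before the RefSeq start (GRCm38.p6), 5′ to 3′ on the gene's strand, with matches to 5 searched motifs in capitals.
C1qb promoter, chr4:136886201-136886450, minus strand: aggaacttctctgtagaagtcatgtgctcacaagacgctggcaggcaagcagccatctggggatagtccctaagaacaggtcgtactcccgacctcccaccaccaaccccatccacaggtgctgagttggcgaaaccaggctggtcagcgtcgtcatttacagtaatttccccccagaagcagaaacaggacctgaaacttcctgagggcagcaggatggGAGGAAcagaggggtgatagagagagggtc
C3 promoter, chr17:57228137-57228386, minus strand: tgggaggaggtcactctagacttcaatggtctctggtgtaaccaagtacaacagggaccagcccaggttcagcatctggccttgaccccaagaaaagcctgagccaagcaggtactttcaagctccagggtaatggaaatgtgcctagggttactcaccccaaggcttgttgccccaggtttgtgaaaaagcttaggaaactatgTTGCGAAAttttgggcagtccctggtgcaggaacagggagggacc
Cfp promoter, chrX:20931556-20931805, minus strand: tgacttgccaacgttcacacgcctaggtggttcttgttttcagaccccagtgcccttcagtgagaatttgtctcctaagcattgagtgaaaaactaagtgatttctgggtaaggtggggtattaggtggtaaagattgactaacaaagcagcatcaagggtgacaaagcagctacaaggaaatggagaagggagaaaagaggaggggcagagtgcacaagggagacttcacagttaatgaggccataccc
The motifs were TGCTGAC (a MAF motif), GAGGAA (the PU.1 core), TTGCNNAA (C/EBP), GAAANNGAA (an interferon-stimulated response element) and TTCNNNGAA (STAT), searched on both strands. The capitals in C1qb mark GAGGAA, 30 to 25 bases before the start, and those in C3 mark a TTGCNNAA match, 45 to 38 bases before it, while the Cfp window held no match, and no 2 matches overlapped. The table of promoters had 6 of the 9 genes, and C1qa, Cfb and Serping1 were not among them. Of these 6 windows GAGGAA was found in 2 (C1qb and C1qc), against 23.3% of all 32851 promoters, TTGCNNAA in 1 (C3, against 9.56%), GAAANNGAA in 1 (C5ar1, against 7.13%), and TGCTGAC and TTCNNNGAA in 0 (against 3.81% and 7.02%). Parts of the C1qc, C5ar1 and C3ar1 windows lie inside the gene models used for counting, by 151, 202 and 4 bases, and these are not printed.

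All 9 genes differed among the 5 subtypes in a joint test (edgeR's quasi-likelihood F test with Benjamini-Hochberg adjustment over all genes tested), as did 73.5% of all genes tested, with adjusted p from 1.48e-11 for C3 to 0.000546 for Serping1. No subtype was highest for every gene. LN CD11b+ DCs had the highest mean CPM for the 3 C1q chains, Cfb and C3ar1, monocytes for C3 and C5ar1, splenic CD4+ DCs for Cfp, and LN CD103+ DCs for Serping1. Per length, on the TPM scale, Cfp was the most abundant of the 9 transcripts in splenic CD4+ DCs (1270 ± 248 TPM, SD, n = 3) and in splenic CD8+ DCs (385 ± 109 TPM). C3 held that place in monocytes with 468 ± 46.1 TPM, and C1qb in LN CD11b+ DCs with 451 ± 159 TPM. In LN CD103+ DCs no member passed a mean of 37.1 TPM, the level of Cfb.

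**Figure D1:**
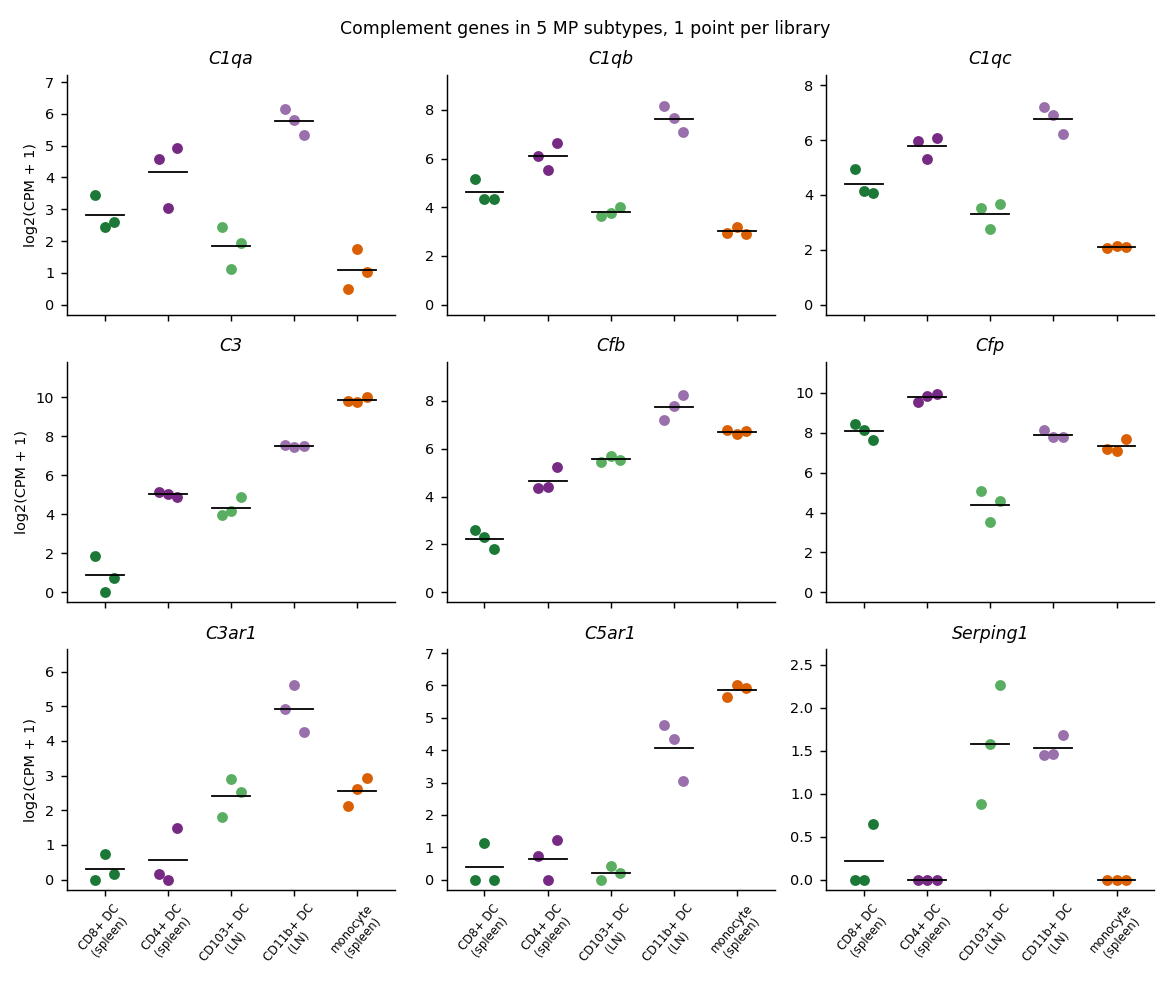
Level of each of the 9 complement genes in every library, as log2(CPM + 1) on the vertical axis, with the 5 subtypes on the horizontal axis, 1 point per library and a line at the mean of the 3 plotted values. C1q chains peak in LN CD11b+ DCs, C3 and C5ar1 in monocytes and Cfp in splenic CD4+ DCs, and the 6 monocyte and CD4+ DC libraries have no Serping1 count.

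Set against the DCs, monocytes showed a split within the pathway. Against splenic CD8+ DCs, 4 of the 9 genes were higher in monocytes (C3, Cfb, C3ar1 and C5ar1) and 4 were lower (the 3 C1q chains and Cfp), where 20.4% of all genes tested were higher and 21.7% lower, and Serping1 did not pass. The same genes passed in the same directions against splenic CD4+ DCs, with backgrounds of 23.7% and 24.2%. Against LN CD103+ DCs, C3, Cfb, Cfp and C5ar1 were higher (4 of 9, background 24.6%) and C1qb, C1qc and Serping1 lower (3 of 9, background 28.5%). Against LN CD11b+ DCs, 2 were higher (C3 and C5ar1, background 21.4%) and 6 lower (the C1q chains, Cfb, C3ar1 and Serping1, background 26.5%). The median log2 fold change of the members was -0.77 against CD8+ DCs, or -0.55 with Serping1 at its bound, -0.20 over the 8 genes with a count against CD4+ DCs, 0.14 against CD103+ DCs and -2.65 against CD11b+ DCs. Over all genes tested the medians of these 4 comparisons lay between -0.07 and -0.01. The 4 comparisons share the monocyte libraries.

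Between the DC lineages every member past the threshold was lower in DC1 than in DC2. In the spleen 0 of the 9 genes were higher in CD8+ than in CD4+ DCs, where 13.1% of all genes tested were, and 6 were lower (the C1q chains, C3, Cfb and Cfp), against a background of 14.4%. DESeq2, an alternative tool, also found none higher among them, and so did an unadjusted p under 0.05. In the LN 0 of 9 were higher in CD103+ than in CD11b+ DCs by either tool or at an unadjusted p under 0.05 (background 5.26%). There 8 were lower, Serping1 being the exception (background 7.73%). A count of 0 among 9 genes is near the shares of 13.1% and 5.26% over all genes. It is therefore not read as a result about the members. The members' median log2 fold change was -1.54 in the spleen and -3.47 in the LN, against 0 and -0.01 over all genes tested. The 3 C1q chains count as 3 of the 9 members here and in the other comparisons. They were correlated at 0.967 to 0.978 over the libraries, so these counts and medians do not rest on independent genes.

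Between organs the lineages differed. In DC1, C3, Cfb, C3ar1 and Serping1 were higher in LN CD103+ than in splenic CD8+ DCs (4 of 9, background 23.7%), and C1qb, C1qc and Cfp were lower (3 of 9, background 21.9%), with a median of -0.89 against 0.00 over all genes. In DC2, 8 of the 9 genes were higher in LN CD11b+ than in splenic CD4+ DCs (background 19.3%), with Cfp alone lower (background 13.8%), and the median was 2.55 against 0.05 over all genes.

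**Figure D2:**
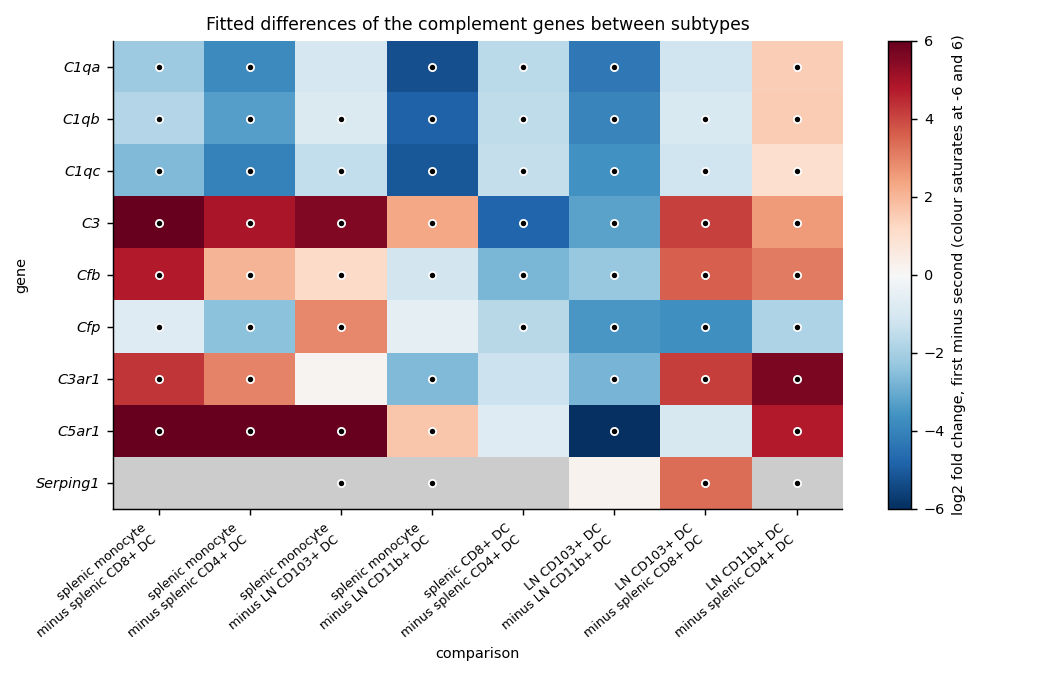
Fitted log2 fold change (colour, first subtype minus second, saturating at -6 and 6) of each gene (rows) in 8 comparisons (columns), with a dot where the edgeR adjusted p was below 0.05 and grey where a subtype had no count. In the column of LN CD103+ minus LN CD11b+ DCs the 8 rows above Serping1 are blue and carry dots, while the 4 columns of monocytes mix red and blue rows.

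The C1q chains are encoded side by side on chromosome 4 of mm10, all on the minus strand: C1qa (ENSMUSG00000036887) at chr4:136895917-136898803, C1qc (ENSMUSG00000036896) at chr4:136889804-136893065 and C1qb (ENSMUSG00000036905) at chr4:136880129-136886187. C1qb measured 19.1, 19.3 and 34.4 CPM in the 3 CD8+ DC libraries, 44.8, 68.3 and 98.2 CPM in CD4+ DCs, 11.6, 12.5 and 15.2 CPM in CD103+ DCs, 134, 202 and 280 CPM in CD11b+ DCs, and 6.58, 6.69 and 8.16 CPM in monocytes. The 5 ranges did not overlap, with CD11b+ DCs at the top and monocytes at the bottom. C1qc gave 15.9, 16.5 and 30.002 CPM in CD8+ DCs, 38.7, 61.4 and 65.9 CPM in CD4+ DCs, 5.73, 10.5 and 11.6 CPM in CD103+ DCs, 72.9, 119 and 146 CPM in CD11b+ DCs, and 3.15, 3.29 and 3.40 CPM in monocytes. Its ranges kept the same order without overlap. C1qa, at lower levels, gave 4.45, 5.04 and 9.80 CPM in CD8+ DCs, 7.16, 23.1 and 29.1 CPM in CD4+ DCs, 1.17, 2.82 and 4.47 CPM in CD103+ DCs, 39.8, 55.0 and 69.9 CPM in CD11b+ DCs, and 0.393, 1.05 and 2.33 CPM in monocytes. Here the CD4+ and CD8+ DCs overlapped, as did the CD8+ and CD103+ DCs and the CD103+ DCs and monocytes, and the lowest CD4+ value was that of replicate 2, which was lowest in its subtype for all 3 chains.

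In the edgeR fit monocytes had less of each chain than LN CD11b+ DCs, by 28.8-fold for C1qb (log2 fold change -4.84 ± 0.35, SE, adjusted p = 1.90e-09), 34.3-fold for C1qc (-5.09 ± 0.38, adjusted p = 2.27e-09) and 43.6-fold for C1qa (-5.29 ± 0.60, adjusted p = 8.49e-07). CD11b+ DCs exceeded splenic CD4+ DCs by 2.92-fold for C1qb (adjusted p = 0.000486), 2.77-fold for C1qa (adjusted p = 0.0222) and 2.03-fold for C1qc (adjusted p = 0.0130). Neighbours in the order of C1qb and C1qc were all past the threshold, but C1qa in CD8+ and CD103+ DCs (adjusted p = 0.0823) and in CD103+ DCs and monocytes (adjusted p = 0.203) did not differ beyond their spread. Without monocyte replicate 2, whose C1qa count of 24 stood against 2 and 8 in the other libraries, C1qa in monocytes lay lower still, at a log2 fold change of -3.03 in place of -2.20 against CD8+ DCs, -4.65 in place of -3.82 against CD4+ DCs and -6.12 in place of -5.29 against CD11b+ DCs.

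Several of the smaller C1q differences depended on a library. The difference of C1qa between CD8+ and CD4+ DCs was -1.62 on the log2 scale (adjusted p = 0.0209), and the call was lost without CD8+ replicate 2 (-1.46, adjusted p = 0.0668) or 3 (-1.46, 0.0813), without CD4+ replicate 1 (-1.49, 0.0556) or 3 (-1.24, 0.0829), and by limma on log2(TPM + 1) (-1.47, 0.0716). The call between CD11b+ and CD4+ DCs was lost without CD4+ replicate 2 (1.08, adjusted p = 0.0801 for C1qa and 0.82, 0.0621 for C1qc) or CD11b+ replicate 1 (1.26, 0.0916 and 0.80, 0.0828). For CD103+ against CD8+ DCs, the call of C1qb (-0.89, adjusted p = 0.0254) was lost without CD8+ replicate 1 (-0.55, adjusted p = 0.179) or CD103+ replicate 1 (-0.81, 0.0817) or 2 (-0.86, 0.0746), and that of C1qc (-1.18, adjusted p = 0.00594) without CD8+ replicate 1 (-0.82, 0.0549). C1qa in that comparison (-1.21) passed without CD4+ replicate 2 (adjusted p = 0.0413), without CD103+ replicate 1 (-1.74, adjusted p = 0.0362) and with no filter on low counts (0.00357). C1qb was lower in monocytes than in CD103+ DCs (-0.86, adjusted p = 0.0351), and this call was lost without CD103+ replicate 2 (-0.90, adjusted p = 0.0584) or 3 (-0.75, 0.105), without monocyte replicate 1 (-0.82, 0.0868), 2 (-0.98, 0.0503) or 3 (-0.80, 0.0996), by limma on TPM (-0.65, 0.122) and with run 1 of each monocyte library alone (-0.70, 0.111).

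The chains moved together. Over the 15 libraries the Pearson correlation of log2 CPM was 0.978 for C1qb with C1qc, 0.968 for C1qa with C1qc and 0.967 for C1qa with C1qb, as a description of libraries that share subtypes. For each chain the other 2 chains were the genes most like it among all tested genes that reached 10 CPM in a subtype, followed by Gfra2, a receptor for GDNF-family ligands (r = 0.937 with C1qc), for C1qa and C1qc and by Dkk2, a Wnt antagonist (r = 0.894), for C1qb. On the TPM scale C1qb made up the largest part of the summed C1q transcripts in every library, from 52.3% to 75.4%. By subtype the share of C1qb was 57.1% ± 1.10 in CD8+ DCs, 57.8% ± 3.56 in CD4+ DCs, 62.6% ± 10.8 in CD103+ DCs, 62.7% ± 1.45 in CD11b+ DCs and 69.9% ± 5.14 in monocytes (SD, n = 3). The share of C1qa in monocytes, between 4.64% and 19.5%, rested on 2 to 24 counts.

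Splenic and LN macrophages also make C1q, and 12 macrophage markers were summed beside it. Their sum was 1374 to 1885 CPM in CD4+ DCs, 1278 to 1414 CPM in monocytes, 693 to 901 CPM in CD11b+ DCs, 485 to 522 CPM in CD8+ DCs and 330 to 350 CPM in CD103+ DCs, and all 12 markers had a count in every subtype. Monocytes, with the second-highest mean of this sum (1343 CPM), had the lowest summed C1q (10.2 to 13.9 CPM), and CD11b+ DCs, with 246 to 496 CPM of C1q, were the third by their marker mean (811 CPM). Within CD11b+ DCs the libraries fell in the same order for both sums, with replicate 1 highest (901 and 496 CPM) and replicate 3 lowest (693 and 246 CPM), whereas in CD4+ DCs replicate 2 had the highest marker sum (1885 CPM) and the lowest C1q (90.7 CPM). By their means, 5 of the 12 markers were highest in CD4+ DCs (Adgre1, Vcam1, Hmox1, Cd5l and Cd163) and 3 in CD11b+ DCs (Mertk, Marco and Axl). Another 3 were highest in monocytes (Spic, Siglec1 and Cd68) and 1 in CD103+ DCs (Timd4). Vcam1, Cd5l, Timd4 and Marco, 4 of the 12, were lowest in monocytes, as C1q was, at 7.90, 0.197, 0.250 and 0.284 CPM. Of the others, 6 were lowest in CD103+ DCs and 2 in CD8+ DCs. The monocyte sum was mostly Cd68 (529 CPM), Adgre1 (415 CPM), Hmox1 (208 CPM) and Axl (119 CPM). The part of macrophages in the C1q values was not tested.

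**Figure D3:**
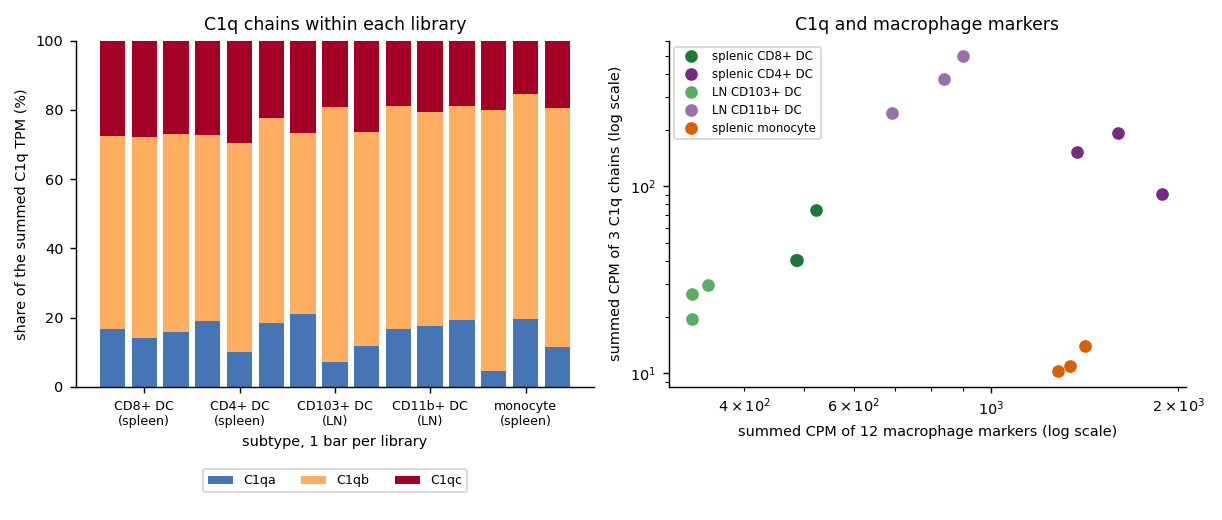
Left, the share of each chain in the summed C1q TPM (vertical axis, %) in each of 15 libraries (bars, grouped by subtype). Right, summed CPM of the 3 chains against summed CPM of 12 macrophage markers, both on log scales, 1 point per library, where the monocytes lie at 10.2 to 13.9 CPM of C1q with a marker sum above that of LN CD11b+ DCs.

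C3 (ENSMUSG00000024164, chr17:57203970-57228136, minus strand), the component on which the pathways converge, had the widest span of the 9 genes in CPM. It measured 865, 902 and 1029 CPM in monocytes, 178, 184 and 191 CPM in CD11b+ DCs, 29.0, 31.5 and 33.9 CPM in CD4+ DCs, 14.5, 16.7 and 29.0 CPM in CD103+ DCs, and 0, 0.687 and 2.63 CPM in CD8+ DCs. Monocytes and CD11b+ DCs stood clear of all other libraries, and in the CD8+ DCs only 28 counts were seen over the 3 libraries. Monocytes exceeded CD11b+ DCs 5.06-fold (log2 fold change 2.34 ± 0.36, SE, edgeR adjusted p = 3.07e-05), CD4+ DCs 29.6-fold (4.89 ± 0.41, adjusted p = 2.22e-08), CD103+ DCs 46.4-fold (5.54 ± 0.42, adjusted p = 2.74e-09) and CD8+ DCs 843-fold (9.66 ± 0.53, adjusted p = 1.01e-10). CD4+ and CD103+ DCs did not differ beyond their spread (adjusted p = 0.152). Without CD8+ replicate 1, which held 22 of the 28 counts, the log2 fold change against CD8+ DCs was 11.24 for monocytes and went from 4.12 to 5.70 for CD103+ DCs, and that of CD8+ against CD4+ DCs went from -4.78 to -6.35.

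Cfb (ENSMUSG00000090231, chr17:34856374-34862518, minus strand), the serine protease of the alternative pathway convertase, was highest in CD11b+ DCs. Its libraries gave 144, 220 and 300.1 CPM in CD11b+ DCs, 96.5, 106 and 109 CPM in monocytes, 42.7, 45.2 and 51.3 CPM in CD103+ DCs, 19.7, 20.3 and 36.3 CPM in CD4+ DCs, and 2.52, 3.91 and 5.02 CPM in CD8+ DCs. No 2 subtypes overlapped, and all 10 pairs of subtypes passed the threshold in the edgeR fit. CD11b+ DCs exceeded monocytes 2.13-fold (adjusted p = 0.00237), and CD103+ exceeded CD8+ DCs 12.2-fold (log2 fold change 3.60 ± 0.32, SE, adjusted p = 3.06e-08). Of its exon length, 79.5% is shared with Gm20547, and reads there were counted for both genes, so the level of Cfb may include reads of this overlapping transcript.

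Cfp (ENSMUSG00000001128, chrX:20925454-20931555, minus strand), which encodes properdin, had another pattern. It measured 736, 930.5 and 988 CPM in CD4+ DCs, 199.8, 286 and 345 CPM in CD8+ DCs, 219.9, 222 and 285 CPM in CD11b+ DCs, 137, 147 and 204 CPM in monocytes, and 10.5, 22.7 and 32.5 CPM in CD103+ DCs. The CD4+ libraries were above and the CD103+ libraries below all others, with the remaining 3 subtypes between them and CD8+ DCs overlapping both CD11b+ DCs and monocytes. CD4+ DCs exceeded CD8+ DCs 3.19-fold (log2 fold change 1.67 in size, edgeR adjusted p = 0.000353), and CD103+ DCs were 12.6-fold below CD8+ DCs (-3.67 ± 0.33, SE, adjusted p = 3.70e-08), 11.1-fold below CD11b+ DCs (-3.47 ± 0.33, adjusted p = 7.07e-07) and 7.43-fold below monocytes (adjusted p = 3.20e-07). CD8+ and CD11b+ DCs did not differ beyond their spread (adjusted p = 0.634), nor did CD11b+ DCs and monocytes (adjusted p = 0.114), although a fit of only the latter 2 subtypes gave 0.0175. The lower level in monocytes than in CD8+ DCs (-0.77, adjusted p = 0.0425) was a call lost without CD8+ replicate 1 (-0.58, adjusted p = 0.172) or 2 (-0.75, 0.0867), CD103+ replicate 3 (-0.77, 0.0516) or monocyte replicate 1 (-0.70, 0.129) or 2 (-0.65, 0.149), and by limma on log2(TPM + 1) (-0.65, 0.143).

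C3ar1 (ENSMUSG00000040552, chr6:122847138-122856161, minus strand), the receptor for C3a, was present at low levels. It gave 18.1, 29.1 and 48.1 CPM in CD11b+ DCs, 3.34, 5.15 and 6.58 CPM in monocytes, 2.51, 4.80 and 6.44 CPM in CD103+ DCs, 0, 0.129 and 1.83 CPM in CD4+ DCs, and 0, 0.115 and 0.675 CPM in CD8+ DCs. CD11b+ DCs stood above all other libraries, monocytes and CD103+ DCs overlapped, and the splenic DCs had 12 and 6 counts in all. CD11b+ DCs exceeded monocytes 6.33-fold (log2 fold change 2.65 in size, SE 0.61, edgeR adjusted p = 0.00143) and CD4+ DCs 48.7-fold (5.64 ± 0.77, adjusted p = 1.56e-05), and monocytes did not differ from CD103+ DCs beyond their spread (adjusted p = 0.864). Without CD4+ replicate 3, which held 11 of the 12 counts, the log2 fold change against CD4+ DCs went from 5.64 to 8.47 for CD11b+ DCs and from 2.99 to 5.83 for monocytes. Without CD8+ replicate 2, with 5 of the 6 counts, that against CD8+ DCs went from 4.27 to 6.06 for monocytes and from 4.13 to 5.91 for CD103+ DCs.

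C5ar1 (ENSMUSG00000049130, chr7:16246743-16259540, minus strand) encodes CD88, the receptor for C5a. From its RNA data the study reported CD88 as a usable surface marker for telling monocytes and macrophages from DCs. Its protein histograms showed more CD88 on macrophages and tissue monocytes than on DCs, in human and mouse. The values below are of RNA only. They belong to the study's own RNA data, so they are no independent test of the marker. C5ar1 measured 48.6, 59.1 and 63.9 CPM in monocytes and 7.29, 19.5 and 26.6 CPM in CD11b+ DCs, and the 9 libraries of the other DC subtypes lay between 0 and 1.33 CPM. Monocytes and CD11b+ DCs each stood clear of all other libraries, and CD8+, CD4+ and CD103+ DCs held 9, 13 and 4 counts. Monocytes exceeded CD8+ DCs 141-fold (log2 fold change 7.19 ± 0.79, SE, edgeR adjusted p = 6.38e-07), CD4+ DCs 86.8-fold (6.40 ± 0.75, adjusted p = 1.62e-06) and CD103+ DCs 332-fold (8.16 ± 0.87, adjusted p = 2.78e-07). Their lead over CD11b+ DCs was 3.21-fold (1.66 ± 0.53, adjusted p = 0.0157), and the call was lost without CD11b+ replicate 3 (1.31, adjusted p = 0.0593), without monocyte replicate 2 (1.58, 0.0569) and in DESeq2 (1.66, 0.258). CD11b+ DCs exceeded CD4+ DCs 27.0-fold (4.73 ± 0.74, adjusted p = 7.29e-05) and CD103+ DCs 103-fold (adjusted p = 5.60e-05).

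The folds of C5ar1 against the other DCs rested on few counts. All 9 CD8+ counts were in replicate 2, so CD8+ DCs had no count without it. The log2 value then fitted for monocytes minus CD8+ DCs was 11.69. For CD8+ minus CD4+ DCs it was -5.35 (edgeR adjusted p = 0.0453), in place of -0.80 (0.633). With no count in CD8+ DCs, neither value measures a fold. The fold of monocytes was 6.61 without CD8+ replicate 1 and 6.58 without replicate 3. Without CD4+ replicate 3 the values against CD4+ DCs went to 7.24 for monocytes and 5.58 for CD11b+ DCs, and without CD103+ replicate 2 those against CD103+ DCs went to 9.26 for monocytes and from -6.50 to -7.59 for CD103+ minus CD11b+ DCs. Of 6 monocyte markers, 4 were higher by their means in CD11b+ DCs than in the other DCs, with Fcgr1, which encodes CD64, at 15.9 CPM against at most 5.14 CPM, Ly6c2 at 14.998 against at most 10.9 CPM, Ccr2 at 125 against at most 57.7 CPM and Cd14 at 84.7 against at most 46.3 CPM. Csf1r and Itgam were higher in CD4+ DCs, at 516 and 347 CPM, than in CD11b+ DCs, at 342 and 110 CPM. A sum of 9 neutrophil markers was 215 to 338 CPM in monocytes, with all 9 having a count and Ly6g at 0.219 CPM, against at most 2.16 CPM in any DC library. The monocyte sum was mostly Ngp (99.3 CPM), Ltf (49.8 CPM), S100a8 (41.9 CPM), S100a9 (37.9 CPM) and Camp (25.3 CPM), with Retnlg at 0.173 CPM. The study names S100a8 and S100a9 among the signature genes of monocytes. The part of monocytes in the CD11b+ DC libraries and of neutrophils in the monocyte libraries was not tested, for C5ar1 or for C3.

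Serping1 (ENSMUSG00000023224, chr2:84765387-84775444, minus strand) encodes the C1 inhibitor, which blocks the proteases bound to C1q. It was the rarest of the 9 transcripts, with 0.837, 1.99 and 3.81 CPM in CD103+ DCs, 1.72, 1.76 and 2.21 CPM in CD11b+ DCs, 0, 0 and 0.573 CPM in CD8+ DCs, and no count in the 6 libraries of CD4+ DCs and monocytes. All 6 LN libraries were above all 9 splenic libraries. No splenic library reached 1 CPM, so Serping1 passed the filter on low counts only through the LN. Its tests of LN against spleen are therefore not independent of that filter. A floor of 3 counts over the subtype stands for 0.153 CPM in CD4+ DCs and 0.131 CPM in monocytes, for counting error only. Against this floor CD103+ DCs were at least 16.9-fold higher than monocytes (edgeR adjusted p = 0.00128), and CD11b+ DCs were at least 14.5-fold higher than monocytes (adjusted p = 0.00212) and at least 12.4-fold higher than CD4+ DCs (adjusted p = 0.00426). CD103+ and CD11b+ DCs did not differ beyond their spread (46 against 38 counts, adjusted p = 0.914).

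CD103+ exceeded CD8+ DCs 11.6-fold in Serping1 (46 against 5 counts, edgeR adjusted p = 0.0151), and this call was lost without CD8+ replicate 1 (2.80 on the log2 scale, adjusted p = 0.0509) or 2 (2.82, 0.0536) or CD103+ replicate 3 (2.74, 0.0668). Without CD8+ replicate 3, which held all 5 counts, CD8+ DCs were at 0 and the adjusted p was 0.00264. Without CD103+ replicate 3 the adjusted p against monocytes was 0.00539. A sum of 8 fibroblast markers was 3.07 to 7.84 CPM in CD103+ DCs and 7.64 to 9.53 CPM in CD11b+ DCs, against 0 to 2.51 CPM in splenic DCs. In splenic DCs Dcn, Lum, Pdgfra and Pdpn had no count. Pdpn had none in CD11b+ DCs either, and a mean of 0.0855 CPM in CD103+ DCs. In monocytes the fibroblast sum was 4.33 to 7.58 CPM with 6 of the 8 markers at 0. A sum of 7 T cell markers was 72.0 to 142 CPM in the LN DCs and at most 18.4 CPM in the spleen. The part of such cells in the Serping1 values was not tested.

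The difference between DC1 and DC2 was set against itself in the 2 organs, as (CD103+ minus CD11b+) minus (CD8+ minus CD4+). It passed for 5 of the 9 genes, where 11.3% of all genes tested did, and was below 0 in each. DC1 stood further below DC2 in the LN than in the spleen for C1qa (-4.30 in the LN and -1.62 in the spleen on the log2 scale, difference -2.68 ± 0.73, SE, edgeR adjusted p = 0.0214), C1qb (-3.97 and -1.54, difference -2.44 ± 0.43, adjusted p = 0.000931), C1qc (-3.62 and -1.41, difference -2.20 ± 0.44, adjusted p = 0.00287) and Cfp (-3.47 and -1.67, difference -1.80 ± 0.42, adjusted p = 0.00854). For C5ar1 (-6.50 and -0.80, difference -5.70 ± 1.64, adjusted p = 0.0304) the call was lost without CD8+ replicate 2 (-1.17, adjusted p = 0.881), CD4+ replicate 2 (-5.18, 0.0501), CD103+ replicate 3 (-5.65, 0.0545) or CD11b+ replicate 1 (-5.29, 0.0546), and the difference was -6.29 without CD8+ replicate 1, -6.31 without CD8+ replicate 3, -6.55 without CD4+ replicate 3 and -6.80 without CD103+ replicate 2. Without CD8+ replicate 2 the CD8+ DCs had no C5ar1 count, so the value of -1.17 measures no difference. The call of C1qa was lost without CD8+ replicate 1 (-2.24, adjusted p = 0.0636), CD103+ replicate 2 (-2.28, 0.0642) or CD11b+ replicate 1 (-2.47, 0.0597).

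C3 and Cfb did not pass, at 1.57 ± 0.61 (SE, edgeR adjusted p = 0.109) and 0.48 ± 0.41 (adjusted p = 0.507). For C3 the value was past the threshold in DESeq2 (1.66, adjusted p = 0.0115), with no filter on low counts (1.58, adjusted p = 0.00210) and without CD8+ replicate 1 (3.15, adjusted p = 0.00290). C3ar1 did not pass either (-1.51 ± 1.42, adjusted p = 0.558), except by limma on log2(TPM + 1) (-2.18, adjusted p = 0.0121), and Serping1 could not be read because CD4+ DCs had no count.

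**Figure D4:**
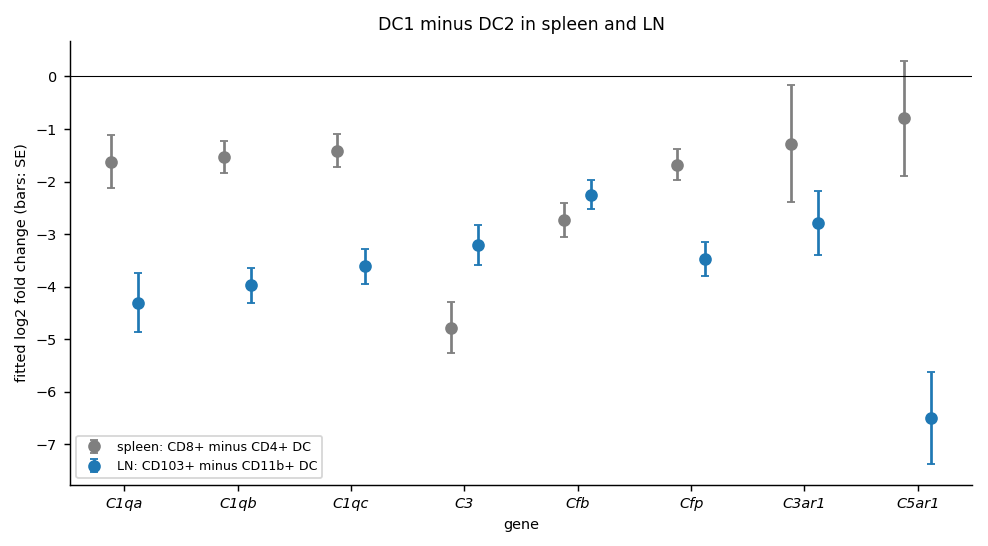
Fitted log2 fold change of DC1 minus DC2 (vertical axis, points, with SE bars) for 8 genes (horizontal axis) in the spleen (grey) and the LN (blue), leaving out Serping1, which had no count in splenic CD4+ DCs. All 16 values drawn lie below 0, and the LN values of the C1q chains, Cfp and C5ar1 lie below their splenic values. The splenic values of C3ar1 and C5ar1 did not pass the threshold, and they turned to 1.56 and 0.044 without CD4+ replicate 3. In the spleen CD8+ DCs had 5 Serping1 counts. The LN value of Serping1, not drawn, was 0.22 (edgeR adjusted p = 0.914).

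The members other than C1q were like different sets of genes. Across the 15 libraries C3 was most like Oas1g, Gbp7 and Kctd12b (r = 0.976, 0.962 and 0.961 of log2 CPM), the first 2 being interferon-inducible genes, and Cfp was most like Prkcb, a protein kinase C (r = 0.969), Ddr1, a collagen receptor (r = 0.963), and Rgl1 (r = 0.959). C5ar1 was most like Arhgef10l (r = 0.953), Trem2, a myeloid lipid receptor (r = 0.953), and Ms4a6d (r = 0.949), all 3 highest in monocytes. Serping1 was most like Gca (r = 0.962) and the chemokines Ccl17 (r = 0.959) and Ccl22 (r = 0.955), whose mean levels in LN CD103+ DCs were 112, 130 and 1299 CPM. For Cfb the gene most like it was Gm20547 (r = 0.999), which shares its reads, followed by Lactb2 (r = 0.956) and Fam20c (r = 0.943), and for C3ar1 Snx33 (r = 0.910) and Myh10 (r = 0.880) were among those most like it. Among the members themselves, the correlation was 0.877 for C3 with Cfb, 0.864 for Cfb with C3ar1 and 0.793 for C3 with C5ar1, and 0.00 for C3 with C1qb. These values describe libraries that share subtypes.

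The rest of the system was listed as 49 further complement genes, of which 25 passed the filter on low counts and 10 had no count in any library. Of the 25, 22 differed among the subtypes, where 73.5% of all genes tested did, and Masp2, C8g and Cd46 did not pass. In CD8+ against CD4+ DCs 5 of the 25 were higher and 6 lower (13.1% and 14.4% of all genes), and in CD103+ against CD11b+ DCs 1 was higher and 6 lower (5.26% and 7.73% of all genes), with medians of -0.49 and -0.73 on the log2 scale over the 23 and 24 genes with a fold. LN CD11b+ exceeded splenic CD4+ DCs for 9 of the 25 and fell below for 3 (19.3% and 13.8% of all genes, median 0.50), and LN CD103+ exceeded splenic CD8+ DCs for 8 and fell below for 6 (23.7% and 21.9% of all genes, median 0.95). Monocytes were higher for 11 and lower for 6 against CD8+ DCs (20.4% and 21.7% of all genes, median 1.061), 9 and 5 against CD4+ DCs (23.7% and 24.2%, median 0.68), 8 and 7 against CD103+ DCs (24.6% and 28.5%, median -0.27), and 6 and 9 against CD11b+ DCs (21.4% and 26.5%, median 0.21). The medians over all genes tested lay between -0.071 and 0.050 in these comparisons.

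Among the initiators and effectors that reached 10 CPM, Fcna, the ficolin A of the lectin pathway, was highest in the splenic DC libraries, with 73.6 to 144 CPM in CD4+ DCs and 12.7 to 41.5 CPM in CD8+ DCs against at most 7.53 CPM in any other library. The part of macrophages in the Fcna values was not tested. The log2 fold change of LN CD11b+ minus splenic CD4+ DCs was -4.19 (edgeR adjusted p = 4.06e-06). C6, a component of the membrane attack complex, was also highest in CD4+ DCs, at 11.3 to 12.7 CPM, and the LN DCs and monocytes lay between 0 and 1.51 CPM. Neither followed the C1q chains, which were higher in the LN than in the splenic DC2.

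Regulators differed among themselves. Clu, clusterin, which blocks the membrane attack complex, was far higher in the LN, with 348 to 438 CPM in CD11b+ DCs and 85.3 to 125 CPM in CD103+ DCs against at most 2.43 CPM in any splenic library (log2 fold change of CD11b+ minus CD4+ DCs 10.01 ± 0.45, SE, edgeR adjusted p = 6.81e-11). Cr1l, the membrane regulator Crry, varied least of the 9 genes named here, from 24.6 CPM in a CD8+ library to 63.8 CPM in a CD103+ library, and C1qbp, a mitochondrial protein that can bind C1q, ranged from 29.5 CPM in a monocyte library to 132 CPM in a CD8+ library.

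Of the receptors named, Itgb2, Cd93 and Lrp1 were highest in monocytes. Itgb2, the chain shared by complement receptors 3 and 4, was at 1441 to 1686 CPM in monocytes, 552 to 956 CPM in splenic DCs and 55.7 to 243 CPM in LN DCs, and its partner chains Itgam and Itgax encode CD11b and CD11c, on which cells were enriched. Cd93, once described as a C1q receptor, was at 85.2 to 223 CPM in monocytes, 15.9 to 53.6 CPM in CD11b+ DCs, 3.66 to 6.57 CPM in CD4+ DCs and at most 0.809 CPM in DC1 libraries. Lrp1, which takes up C1q-tagged cells together with calreticulin, was at 946 to 989 CPM in monocytes against 9.96 to 71.2 CPM in the DCs, whereas Calr was highest in CD8+ DCs, at 247 to 321 CPM.

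**Figure D5:**
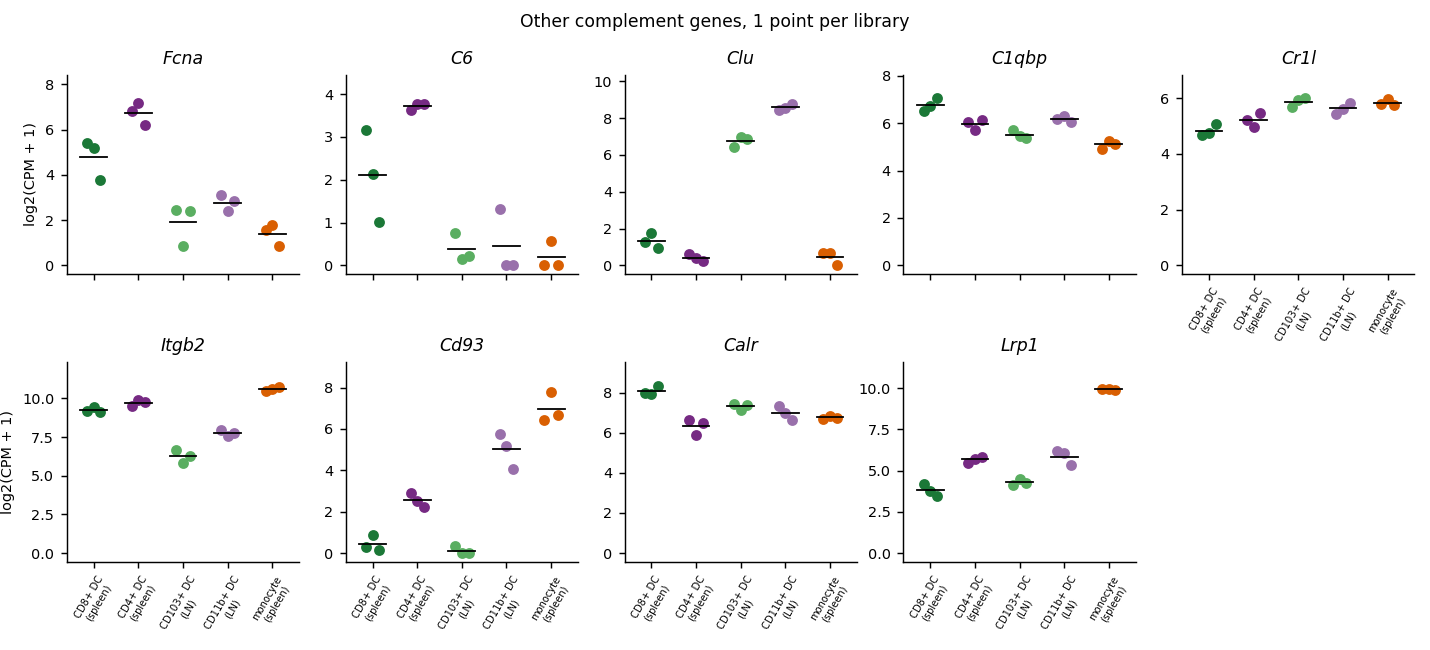
Level of 9 further complement genes in every library, as log2(CPM + 1) on the vertical axis, with the 5 subtypes on the horizontal axis, 1 point per library and a line at the mean of the 3 plotted values. Fcna and C6 are highest in splenic CD4+ DCs, Clu is at 85.3 to 438 CPM in the LN and at most 2.43 CPM in the spleen, and Itgb2, Cd93 and Lrp1 are highest in monocytes.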

How the data were processed

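The 9 complement genes, the further lists and the comparisons were chosen with earlier results of these data known. Counts per gene were made by the authors from Ion Torrent reads of polyadenylated RNA (reads of at least 30 nt mapped to mm10 with STAR 2.4.0j, and counted over Ensembl exons without strand with featureCounts of Subread 1.5.2, a read on 2 genes counting for each) and deposited without normalization. The authors also deposited TPM values, computed from the counts and exon lengths. The deposited runs summed to the deposited counts in all 15 libraries. The paper states that uniquely mapping reads were quantified. Reads common to near-identical copies (C4a and C4b, for example) may therefore be missing from both. Genes with overlapping exons may hold reads of each other.

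Symbols were matched to 37607 of 38924 identifiers (96.6%). The tests took genes above 1 CPM in 3 or more libraries (14456). One edgeR 4.0.16 quasi-likelihood model (R 4.3.3, TMM factors 0.883 to 1.10, common dispersion 0.0681, 10 residual degrees of freedom) with a mean per subtype was fitted to all 15 libraries, and p-values were adjusted by Benjamini-Hochberg over all genes tested, threshold 0.05. The script was checked on simulated counts. CPM values are TMM-scaled, and fold changes are ratios of mean CPM. Replicates of a subtype varied 5.19 to 57.8 times as much as counting alone, and with 3 against 3 libraries an exact permutation test cannot go below 0.1. Genes were named by rule: all 9 members, further complement genes that reached a mean of 10 CPM in a subtype and passed the joint test, and the 3 genes most correlated with each member among genes that reached 10 CPM. The results of 2 genes so named are not reported here. Marker genes were picked for mention from their lists with the values known. C1s, Gpr77 and Emr1 are older names of listed genes. Promoters are from RefSeq (GRCm38.p6).

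The alternatives were RLE size factors, DESeq2 1.42.0, no filter, filterByExpr, a required log2 change of 1 or more in size, limma 3.58.1 on log2(TPM + 1), a replicate block, the 2 compared subtypes alone, each run of the monocyte libraries alone, and leaving out each library. Deviations of same-numbered libraries of different subtypes had a median correlation of 0.077 (highest 0.375, over 0.1 in 14 of 30 pairs). For differently numbered libraries the median was -0.027. The numbers were not taken as pairs except in the replicate block. What a shared number stands for is not given, so libraries of different subtypes may not be independent. Floors cover counting error only.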

Additional observations from a re-analysis of the deposited data

Results flagged for a closer look

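The difference between DC1 and DC2 was not the same in both organs for 5 of the 9 genes, by the edgeR test of that difference. The LN difference (CD103+ minus CD11b+ DCs) minus the splenic difference (CD8+ minus CD4+ DCs) was -2.68 for C1qa, -2.44 for C1qb, -2.20 for C1qc, -1.80 for Cfp and -5.70 for C5ar1 on the log2 scale. Those of C1qb, C1qc and Cfp held without any of the 15 libraries in turn. Those of C1qa and C5ar1 did not, and the C5ar1 value went to -1.17 without splenic CD8+ replicate 2. That fit had no C5ar1 count in CD8+ DCs, so its value measures no difference. Organ, cohort of mice and gate on MHC class II cannot be told apart in this difference.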

How the results depend on the processing

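Of the fitted differences of the members under alternatives, 1837 kept their direction and their side of the threshold, 42 lost the threshold, 9 gained it and 11 changed direction, and none of those 11 was past the threshold in the fit reported. The cause of these changes was not tested. Leaving out 1 library at a time, the number of members past the threshold was 4 to 8 for CD103+ minus CD8+ DCs (7 with all libraries, and 5589 to 6955 of all genes) and 3 to 5 for the difference of differences (5 with all, and 1134 to 1805 of all genes). Without splenic CD4+ replicate 3 the log2 difference of CD8+ minus CD4+ DCs turned to 1.56 for C3ar1 (range over all left-out libraries -3.13 to 1.56) and 0.044 for C5ar1 (-5.35 to 0.044). The value of -5.35 was fitted with no C5ar1 count in CD8+ DCs. C3ar1 in monocytes minus CD103+ DCs turned to -0.16 without CD103+ replicate 1, -0.087 without monocyte replicate 3 (range -0.16 to 0.48) and -0.39 with run 2 of each monocyte library. Without CD8+ replicate 2, C5ar1 in CD103+ minus CD8+ DCs turned to 3.52 (range -2.06 to 3.52), with no count left in CD8+ DCs. The same fit turned the difference of differences of C3ar1 to 0.32 (-4.34 to 0.32). For Serping1 the fitted difference of differences was 0.22 without CD8+ replicate 3 (-4.07 to 0.22), with no count left in either splenic DC subtype. These values of C5ar1 and Serping1 are counted among the 11 but measure no change of direction. Serping1 in CD103+ minus CD11b+ DCs turned to -0.012 by limma on log2(TPM + 1), -0.40 without CD103+ replicate 3 (range -0.40 to 0.61) and -0.051 with a replicate block. The replicate block changed no other direction and no call. Over all genes tested, 2640 in place of 3973 passed between CD8+ and CD4+ DCs when a log2 change of 1 or more in size was required, and 1218 in place of 1879 between CD103+ and CD11b+ DCs without CD103+ replicate 2. Members with under 15 counts in a subtype (C3ar1 in splenic DCs, C5ar1 in splenic and CD103+ DCs, and Serping1 in splenic DCs and monocytes) allow no order among those subtypes at this depth.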
